A study of Mus musculus with 4 samples.

Results

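The TREM receptors and their adaptors were followed on 4 expression arrays of mouse RAW264 macrophages, a macrophage-like line of the BALB/c strain. The members were the receptor genes Trem1, Trem2, Trem3, Treml2 and Treml4, the adaptor genes Tyrobp and Hcst, and the kinase gene Syk, chosen by name from the array annotation. These 8 genes, of 24788 named genes on the arrays, were covered by 17 of 56602 probes, and each gene was represented by its brightest probe. All cultures were transfected with small interfering RNA (siRNA), against Tfe3 and Tfeb (siTfe3/Tfeb) or against green fluorescent protein (siGFP), and 48 hours later received either 500 µM ferric chloride or none, over a further 24 hours. The 4 groups were siTfe3/Tfeb with iron, siTfe3/Tfeb without iron, siGFP with iron and siGFP without iron, with 1 array each. Each difference is therefore between 2 arrays of 1 culture each, with no replicate check, no test and no p-value.

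TREM receptors are surface proteins of myeloid cells, and most of them have almost no signalling tail of their own and pair with a transmembrane adaptor. Tyrobp (DAP12) carries an activation motif (ITAM) whose phosphorylated tyrosines recruit the kinase Syk, while Hcst (DAP10) carries a motif that recruits phosphoinositide 3-kinase. Trem1 amplifies inflammatory signals, and Trem2 binds lipids and lipoproteins and is known for phagocytosis, for the response of microglia to damage and for the formation of osteoclasts. Treml4 binds dying cells and in mice strengthens signalling by an endosomal Toll-like receptor. Trem3 is a mouse receptor that couples to DAP12, and Treml2, found on myeloid cells and B cells, has a cytoplasmic tail of its own and is not known as a partner of DAP12.

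Levels are given as processed signal in multiples of the array's 75th percentile, and differences as log2 of the ratio of those levels. Differences of at least 2-fold were counted. The SD beside a difference comes from probes spotted many times on 1 array. It was 0.064 (log2 difference) for levels above 2 on the log2 scale (1090 combinations of probe and array), 0.084 from 0 to 2 (16 combinations), 0.12 from -2 to 0 (10 combinations) and 0.31 below -2 (50 combinations), and was combined where the 2 arrays fell in different ranges. It leaves out all variation between cultures. All 8 members were well above background on all 4 arrays by their brightest probe, so the filter on dim probes removed none. The 75th percentile of the signal was between 593 and 636, and no spot was saturated. The brightest Tfe3 probe stood in siTfe3/Tfeb cells at 68.4% of the siGFP level with iron and 60.6% without, and the brightest Tfeb probe at 112% and 91.0%, so knockdown here means only the array labelled siTfe3/Tfeb. All 10 macrophage markers and 4 of 5 osteoclast markers were well above background on every array, against 3 of 7 neutrophil, 1 of 5 natural killer cell, 3 of 4 T cell, 1 of 3 B cell, 1 of 4 dendritic cell, 1 of 4 fibroblast, 0 of 4 epithelial and 1 of 4 endothelial markers.

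The 5 receptor genes lie together on chromosome 17, in the order Trem1, Trem3, Treml4, Treml2 and Trem2, and their probes span positions 48385230 to 48491596 (array design coordinates, mm9, plus strand). Tyrobp and Hcst are neighbours on chromosome 7 in opposite orientation, and the Syk probes lie on chromosome 13. The size of some Treml4, Treml2 and Trem1 differences depended on which probe was read. A stretch of 30 of the 60 bases of each of their probes is shown, the first 30 for all but the brightest Trem1 probe. That stretch lies around the start of a run of 12 GTT units, with the units in capitals. The position of the probes relative to the reading frames was not analysed here.
Treml4 brightest probe, chr17:48414646-48414705: aaaggccactatgacggggtcacattttat
Treml4 other probe, chr17:48404287-48404346: tccatattatccttccctcagagaagtaac
Treml2 brightest probe, chr17:48450415-48450474: gaaaggggataataattcctgcctataaag
Treml2 other probe, chr17:48442024-48442083: acttagttgaggccaagtcttggtgcaaag
Trem1 brightest probe, chr17:48385849-48385908: acctgtGTTGTTGTTGTTGTTGTTGTTGTT
Trem1 other probe, chr17:48385230-48385289: gtgcagatgctgttcatctcagtaggtttg

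Treml4 had by far the largest iron difference among the members. Its level was 2.02 in siTfe3/Tfeb cells with iron and 0.230 without, and 1.56 in siGFP cells with iron and 0.392 without. Both iron arrays lay above both arrays without iron, and the siTfe3/Tfeb cells had the highest and the lowest of the 4 values. The difference with iron was 8.77-fold in siTfe3/Tfeb cells (log2 3.13, spot SD 0.23) and 3.99-fold in siGFP cells (log2 2.00, spot SD 0.11). It was the 5th highest of 14084 genes measured in siTfe3/Tfeb cells and the 34th highest of 14239 in siGFP cells. Treml4 was the only member at least 2-fold different with iron in either siRNA group, 1 of 8 in each. Over all genes 2.07% differed 2-fold with iron in siTfe3/Tfeb cells and 1.66% in siGFP cells, so 1 of 8 members is a small count to set against the background.

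**Figure D1:**
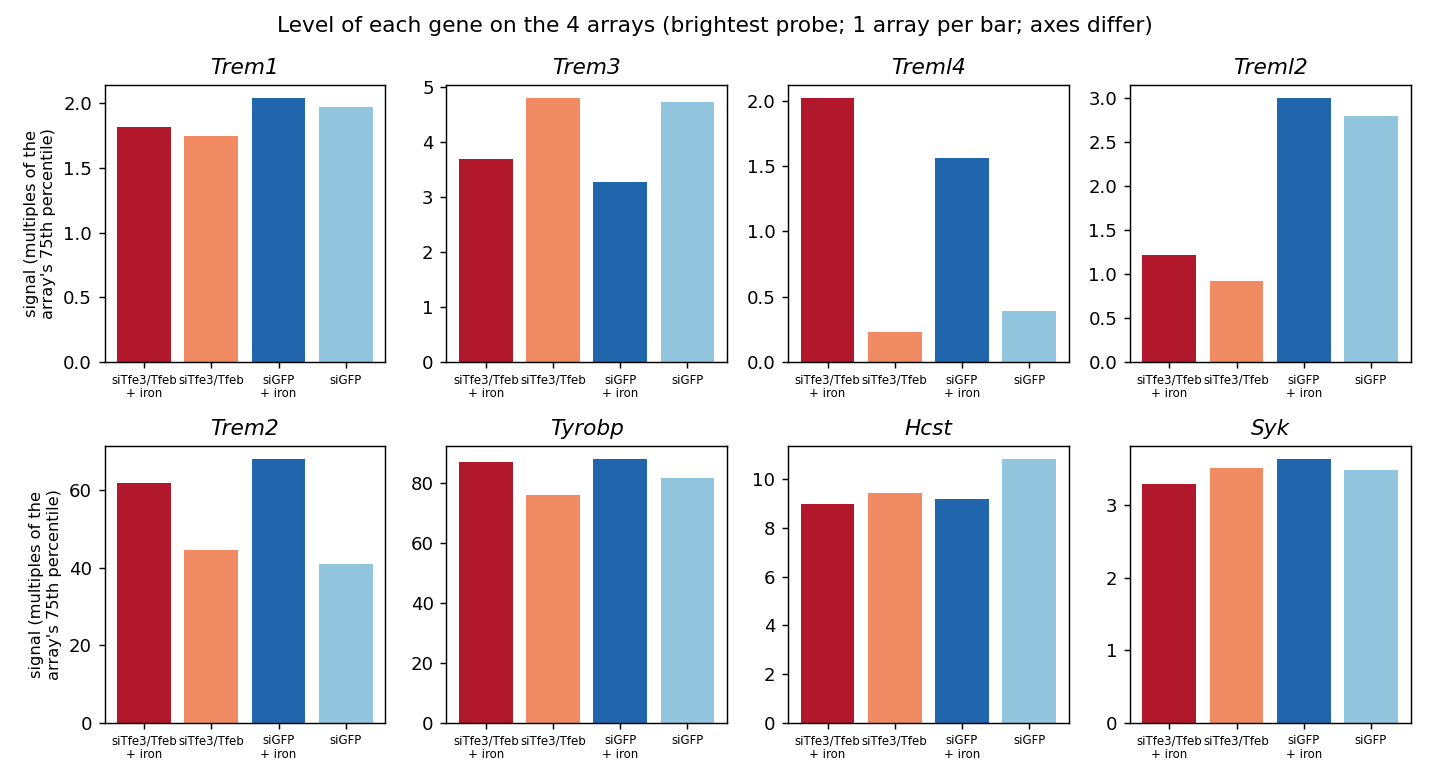
Level of each member on the 4 arrays, as processed signal of its brightest probe in multiples of the array's 75th percentile (vertical axes start at 0 and differ between panels). Each bar is 1 array, so there are no error bars. Treml4 stands at 2.02 and 1.56 on the iron arrays, Treml2 at 1.21 and 0.921 on the siTfe3/Tfeb arrays, and Trem2 at 61.9 and 68.0 on the iron arrays.

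The iron response of Treml4 was larger in siTfe3/Tfeb cells than in siGFP cells by 2.20-fold (log2 1.14, spot SD 0.25), the 22nd highest of 13825 genes. It was the only member whose iron responses differed 2-fold between the siRNA groups, where 0.629% of all genes did (0.282% with the larger value in siTfe3/Tfeb cells and 0.347% with the smaller). With normexp background correction it was 0.92, and with quantile normalization added 0.91, both short of 2-fold. With iron, Treml4 stood 0.37 higher in siTfe3/Tfeb cells than in siGFP cells (spot SD 0.084), and without iron 0.77 lower (spot SD 0.24). The other Treml4 probe was well above background only in siTfe3/Tfeb cells with iron. It gave a bound of at least 2.02-fold higher with iron in siTfe3/Tfeb cells and at least 1.83-fold higher than in siGFP cells with iron, and no value for the response in siGFP cells.

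Trem2 was also higher with iron in both siRNA groups, by less than 2-fold. Its level was 61.9 in siTfe3/Tfeb cells with iron and 44.4 without, and 68.0 in siGFP cells with iron and 40.8 without. Both iron arrays lay above both arrays without iron. The difference was 1.39-fold in siTfe3/Tfeb cells (log2 0.48, spot SD 0.064) and 1.67-fold in siGFP cells (log2 0.74, spot SD 0.064), the 916th highest of 14084 genes and the 385th highest of 14239. The response was smaller in siTfe3/Tfeb cells by 0.26 on the log2 scale (spot SD 0.090). Knockdown left Trem2 within 0.14 of the siGFP level in either state, at -0.14 with iron and 0.12 without. The array carried 1 Trem2 probe (chromosome 17, 48491537 to 48491596), so no other probe bears on it.

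Osteoclast markers differed between the same arrays. The summed level of their 5 markers was 9.38 in siTfe3/Tfeb cells with iron and 3.78 without, and 16.2 in siGFP cells with iron and 7.70 without. The defining marker Calcr (calcitonin receptor) was well above background on no array. The part of these genes in the Treml4 and Trem2 differences was not tested, and in bulk RNA more cells of a type and more RNA per cell cannot be told apart. The summed level of the 10 macrophage markers was 899 in siTfe3/Tfeb cells with iron and 874 without, and 997 in siGFP cells with iron and 1031 without.

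Trem3 went the other way from Treml4, its neighbour on the chromosome. Its level was 3.69 in siTfe3/Tfeb cells with iron and 4.80 without, and 3.28 in siGFP cells with iron and 4.73 without. Both iron arrays lay below both arrays without iron, and the arrays without iron were within the spot error of each other. The log2 difference with iron was -0.38 in siTfe3/Tfeb cells and -0.53 in siGFP cells (spot SD 0.075 each), the 1412th lowest of 14084 genes and the 361st lowest of 14239. With knockdown it stood 0.17 higher with iron (spot SD 0.084) and 0.02 higher without (spot SD 0.064).

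Along the chromosome 17 cluster, Trem3 and its neighbour Treml4 differed with iron in opposite directions, while Trem1 by its brightest probe stayed within the spot SD and Treml2 and Trem2 were higher. From Trem1 to Trem2, in the order of their probes, the log2 difference with iron in siTfe3/Tfeb cells was 0.06 for Trem1, -0.38 for Trem3, 3.13 for Treml4, 0.40 for Treml2 and 0.48 for Trem2. In siGFP cells it was 0.05 for Trem1, -0.53 for Trem3, 2.00 for Treml4, 0.10 for Treml2 and 0.74 for Trem2. Treml1, a receptor of platelets encoded in the same cluster, stood at 0.10 and 0.36.

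**Figure D2:**
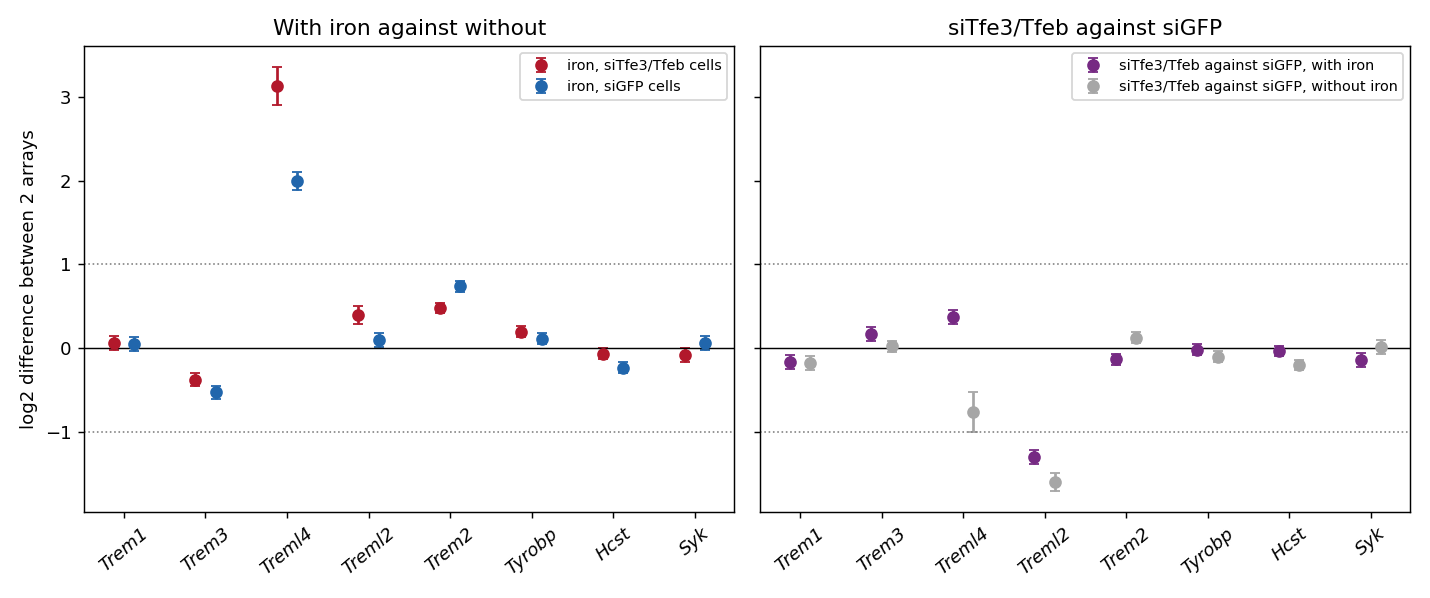
Log2 difference of each member between 2 arrays, with iron against without (left) and siTfe3/Tfeb against siGFP (right), with the 5 receptors in chromosome order. Points are single differences, bars are 1 spot SD, and dotted lines mark a 2-fold difference. Treml4 (3.13 and 2.00) lies past the line with iron, and Treml2 (-1.30 and -1.60) with knockdown.

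Treml2 was the member with the largest knockdown difference by its brightest probe. Its level was 1.21 in siTfe3/Tfeb cells with iron and 0.921 without, and 2.996 in siGFP cells with iron and 2.79 without. Both siTfe3/Tfeb arrays lay below both siGFP arrays. The difference was -1.30 with iron (spot SD 0.084), 2.47-fold lower, and -1.60 without iron (spot SD 0.11), 3.03-fold lower. These were the 87th lowest of 14027 genes and the 73rd lowest of 14276. Treml2 was the only member 2-fold different with knockdown by its brightest probe, 1 of 8 both with and without iron, where 2.16% and 3.22% of all genes differed 2-fold in these comparisons. Its other, far dimmer probe was lower too, by less: -0.68 with iron and -0.69 without (spot SD 0.31 each). Averaged over both probes, the difference with iron was -0.99, just short of 2-fold. With iron, Treml2 stood 0.40 higher in siTfe3/Tfeb cells (spot SD 0.11) and 0.10 higher in siGFP cells (spot SD 0.084), so the iron response in siGFP cells was little more than the spot error.

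The Trem1 probes were both lower with knockdown but disagreed about the size of the difference. The brightest probe, which carries the GTT run, read 1.82 in siTfe3/Tfeb cells with iron and 1.75 without, and 2.04 in siGFP cells with iron and 1.97 without. Both siTfe3/Tfeb levels were below both siGFP levels by this probe too, though no 2 neighbours in their order differed by 2 spot SDs. The knockdown differences were -0.17 with iron and -0.17 without (spot SD 0.084 each). The other probe, without the run, read 0.0984 in siTfe3/Tfeb cells with iron and 0.0830 without, and 0.244 in siGFP cells with iron and 0.322 without. Both siTfe3/Tfeb arrays lay below both siGFP arrays. By that probe Trem1 was 2.47-fold lower with knockdown in the presence of iron (log2 -1.31, spot SD 0.31) and 3.88-fold lower without iron (log2 -1.96, spot SD 0.24). It was well above background on all 4 arrays.

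Both probes were designed on the same annotated transcript, the other probe from its base 2163 and the brightest from its base 2782. The array held 3 probes with a run of at least 8 GTT units, the brightest Trem1 probe among them. All 3 were well above background on every array, and none differed 2-fold in any of the 4 comparisons. Over all genes only between 1.66% and 3.22% did, so 3 probes cannot show whether the run matters. Which of the Trem1 probes follows the transcript was not tested, so Trem1 has no settled knockdown difference here. Its iron difference was under 2-fold by either probe, at 0.06 and 0.25 in siTfe3/Tfeb cells and 0.05 and -0.40 in siGFP cells.

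**Figure D3:**
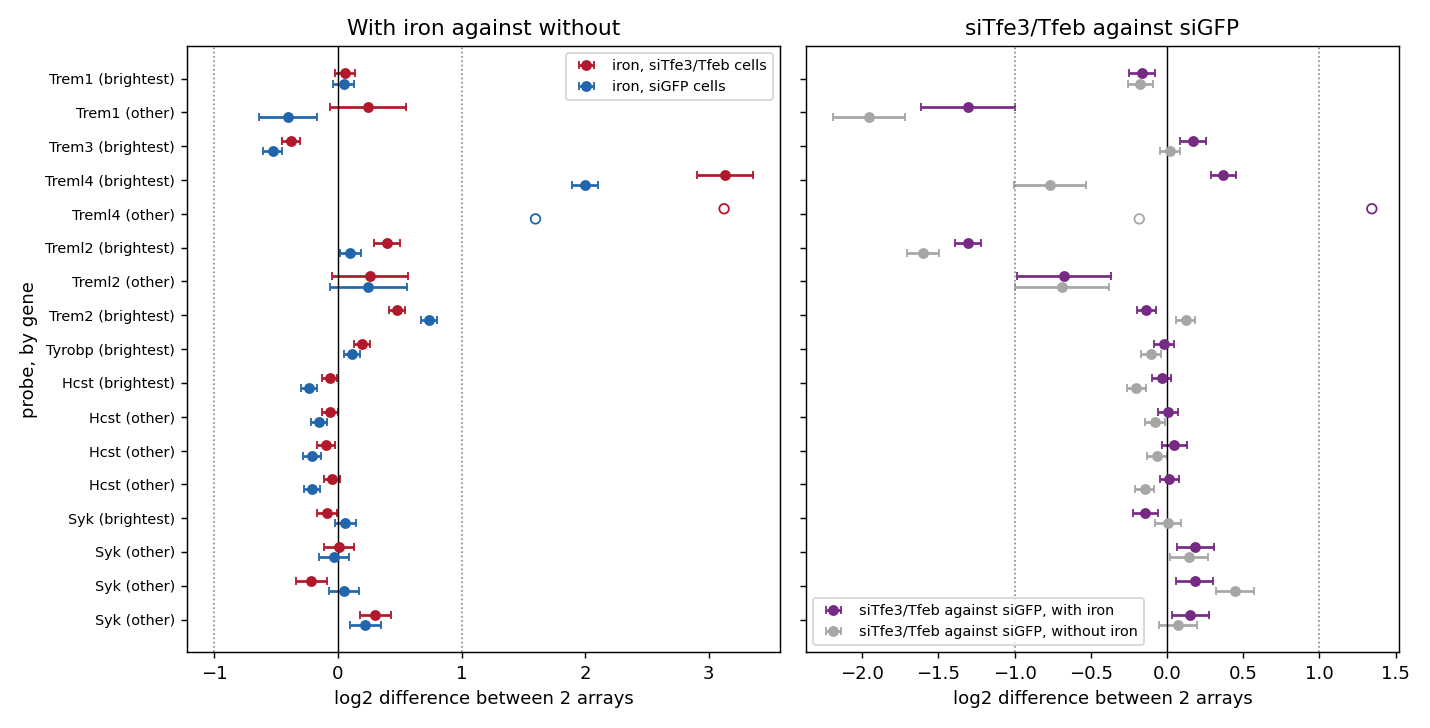
Log2 difference by each of the 17 probes of the members, with iron against without (left) and siTfe3/Tfeb against siGFP (right). Filled points are probes well above background on both arrays with bars of 1 spot SD, open points are those that were not, and dotted lines mark 2-fold. The Trem1 probes stand apart with knockdown, at -0.17 for the brightest in both states and at -1.31 and -1.96 for the other.

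The adaptors and Syk differed little between the arrays. Tyrobp, the adaptor of Trem1, Trem2 and Trem3, had a level of 86.8 in siTfe3/Tfeb cells with iron and 75.8 without, and 88.0 in siGFP cells with iron and 81.5 without. Both iron arrays were above both arrays without iron, by 0.20 in siTfe3/Tfeb cells and 0.11 in siGFP cells (spot SD 0.064 each). No 2 neighbours in the order of its levels differed by 2 spot SDs. With knockdown it stood at -0.02 with iron, or 0.08 with median centring, and at -0.10 without iron. Its single probe spans an intron, with ends at 31200651 and 31202378 of chromosome 7.

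Hcst had a level of 8.99 in siTfe3/Tfeb cells with iron and 9.42 without, and 9.20 in siGFP cells with iron and 10.8 without. The siGFP array without iron was the highest, and the other 3 followed each other within the spot error. The difference with iron was -0.07 in siTfe3/Tfeb cells and -0.24 in siGFP cells (spot SD 0.064 each). All 4 Hcst probes, some of which overlap in sequence, were lower with iron, between -0.10 and -0.05 in siTfe3/Tfeb cells and between -0.24 and -0.15 in siGFP cells. With knockdown Hcst stood at -0.20 without iron, with all 4 probes below 0, and at -0.03 with iron, where the other 3 probes lay above 0. That value turned to 0.02 with quantile normalization and 0.06 with median centring.

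Syk, the kinase that binds the phosphorylated adaptor, had a level of 3.30 in siTfe3/Tfeb cells with iron and 3.50 without, and 3.64 in siGFP cells with iron and 3.49 without. Neighbours in the order of these levels were within the spot error of each other. The differences were -0.09 with iron in siTfe3/Tfeb cells, 0.06 with iron in siGFP cells, -0.14 with knockdown in the presence of iron and 0.01 without iron (spot SD 0.084 each), the last of which turned to -0.01 with normexp background correction. Its 3 other probes gave differences between -0.21 and 0.45, and 2 of these probes were designed on other annotated transcripts. The brightest probe was the only one of the 4 below 0 with knockdown in the presence of iron.

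The promoters of Treml4 and Trem2, the members with the largest iron differences, are shown as the 250 bases before the annotated start (RefSeq, GRCm38.p6, plus strand). The motifs CACGTG (the E-box that MiT/TFE factors such as Tfe3 bind), its extended form (the CLEAR-type palindrome), TGANTCA (AP-1), TGACNNNGC (the core of the antioxidant response element) and GAGGAA (the core of PU.1 sites) were searched on both strands, from 250 bases before to 50 after the start. Capitals mark the matches, TTCCTC being GAGGAA on the other strand and TGAATCA a match of TGANTCA.
Treml4, chr17:48264045-48264294: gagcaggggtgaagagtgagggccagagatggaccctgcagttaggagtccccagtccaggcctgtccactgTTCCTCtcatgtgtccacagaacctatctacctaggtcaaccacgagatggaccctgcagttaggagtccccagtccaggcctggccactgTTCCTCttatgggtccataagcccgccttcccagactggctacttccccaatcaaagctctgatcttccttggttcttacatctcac
Trem2, chr17:48346151-48346400: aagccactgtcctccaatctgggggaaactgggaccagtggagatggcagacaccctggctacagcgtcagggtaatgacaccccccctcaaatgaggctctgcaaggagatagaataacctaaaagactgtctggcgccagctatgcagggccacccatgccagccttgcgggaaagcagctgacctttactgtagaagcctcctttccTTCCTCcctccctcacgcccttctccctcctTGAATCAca

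The Treml4 window held 2 matches of GAGGAA, and the windows of Trem2 and Trem1 and 1 of the Syk windows held 1 each. The Trem2 window also held 1 match of TGANTCA, which no other member window did. A match of GAGGAA was found in 28.3% of 32851 promoter windows and one of TGANTCA in 7.81%. The table held windows for 5 members (Trem1, Trem2, Treml4, Hcst and Syk, the last with 2), and CACGTG, which 7.15% of all windows held, was in none of these. The extended form (0.326% of windows) was not in them either, and TGACNNNGC (12.4%) was in the Hcst window alone. The Treml4 window also held a stretch of 40 bases in 2 exact copies, at positions -225 and -134 from the start, each followed closely by one of the GAGGAA matches. Exact copies of at least 40 bases were found in 0.341% of all windows.

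Likeness was measured over 12474 genes that every array detected well above background, leaving out those named only by an identifier (such as Gm or Rik symbols). Those with a profile most like Treml4 were Rnf183 (a ubiquitin ligase), Plk2 (a stress-induced kinase) and Igf2bp2 (an mRNA-binding protein). The measure was the root mean square distance between log2 profiles centred on their means over the 4 arrays, and it was 0.31, 0.32 and 0.34. The same genes stood at 2.61, 2.31 and 2.18 with iron in siTfe3/Tfeb cells, each below the 3.13 of Treml4, and at 1.94, 2.15 and 2.07 in siGFP cells. They followed Treml4 less closely with knockdown. In the presence of iron they stood at -0.36, 0.14 and -0.13, against 0.37 for Treml4. Without iron they stood at -1.03, -0.03 and -0.25, against -0.77. Closest to Treml2 were Il1rl1 (the interleukin 33 receptor, distance 0.035), Sgk1 (a kinase, 0.063) and Srsf6 (a splicing factor, 0.078). These stood with knockdown at -1.26, -1.41 and -1.18 with iron and at -1.57, -1.46 and -1.54 without. Treml2 stood at -1.30 and -1.60. The genes named for both members were picked for closeness on these same 4 arrays, so their likeness is fixed by the choice. The other members spanned less than 2-fold over the arrays and were not matched.

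Receptors that share the adaptors with the TREM family were lower with knockdown in most cases. Of 15 such receptors 9 were measured with iron and 9 without, 8 of them below 0 in each state, with medians of -0.57 and -0.84 against -0.02 and -0.03 over all genes. With normexp background correction the medians were -0.36 and -0.71. With iron 4 of the 9 were at least 2-fold lower, where 1.33% of all genes were and 0.834% were 2-fold higher, and without iron 3 of 9, where 1.83% were. Pilrb1 was 3.08-fold lower with iron and 3.99-fold without, Pilrb2 3.14-fold and 3.38-fold, and Cd200r4 2.90-fold and 2.57-fold. Pilrb1 and Pilrb2 are close relatives, and cross-hybridisation between their probes was not tested. Pilrb2 was dim, at levels between 0.0454 and 0.186 (spot SD 0.31). Cd200r4 was dim too, at levels between 0.146 and 0.885 (spot SD 0.12 with iron and 0.24 without). The spot SD of Pilrb1 was 0.11 in each state. The brightest receptors of the list differed little with knockdown. Siglech stood at -0.14 with iron and -0.16 without, and Cd300ld at -0.12 and 0.01. Clec5a, a receptor that signals through DAP12, was 2.08-fold lower with iron and 1.99-fold without. Cd200r3 was measured only in siGFP cells, at least 3.55-fold lower with knockdown in the presence of iron and at least 2.43-fold without. With iron 1 of 9 was 2-fold higher in siTfe3/Tfeb cells and 1 of 10 in siGFP cells, both Cd200r4 (1.06 and 1.24), where 1.62% and 1.4% of all genes were. Sirpb1b was 2-fold lower in siGFP cells (-1.003, spot SD 0.24), where 0.267% of all genes were.

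**Figure D4:**
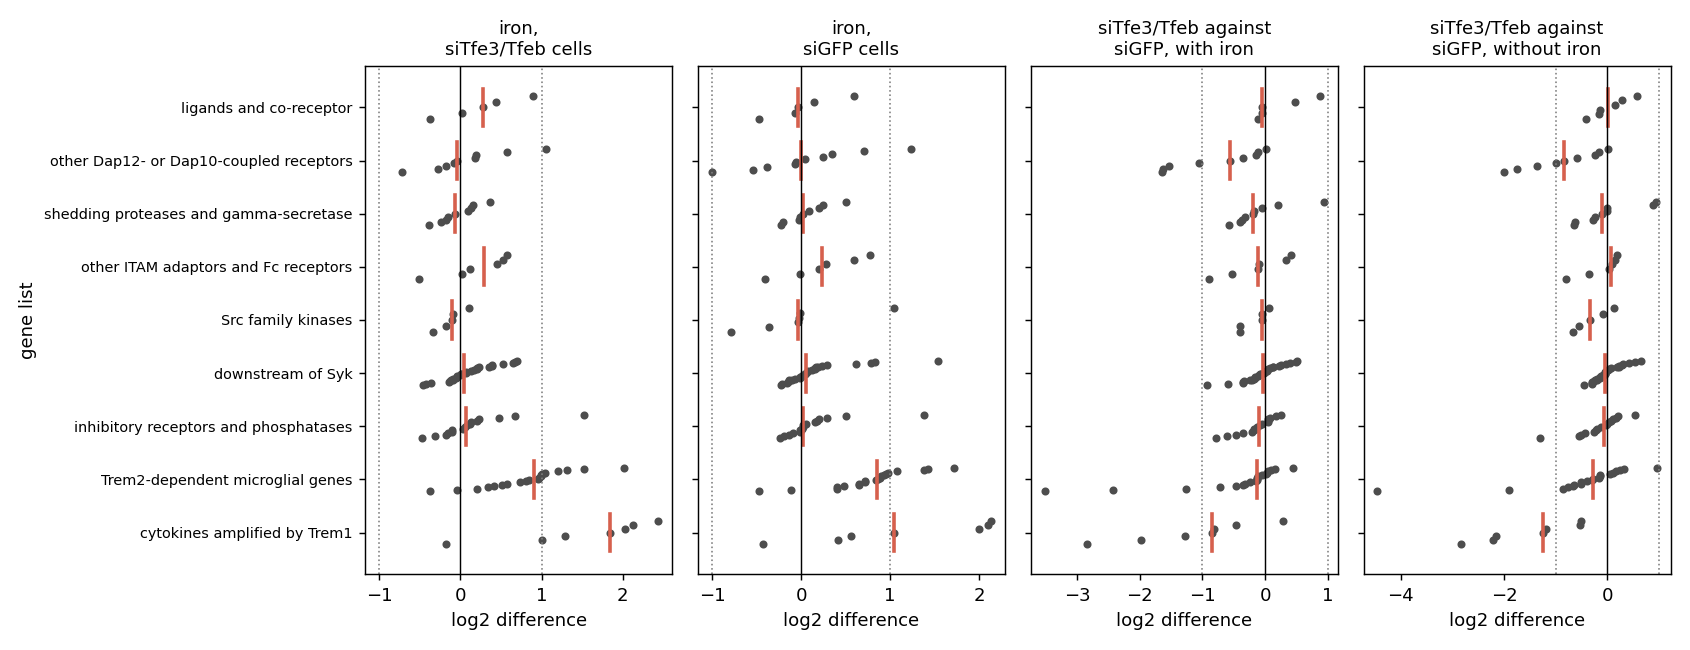
Log2 differences of the genes of 9 pathway lists in the 4 comparisons. Each point is 1 gene well above background on both arrays, orange bars are list medians, and dotted lines mark 2-fold. Receptors that share DAP12 or DAP10 lie to the left with knockdown (medians -0.57 and -0.84). The list labelled as Trem2-dependent microglial genes, not all of which depend on Trem2, lies to the right with iron (medians 0.90 and 0.85).

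Genes of the microglial state in diseased mouse brain that forms in part through Trem2 were mostly higher with iron, as was Trem2 itself. Not all of these genes depend on Trem2, Apoe, Ctsb, Ctsd and Timp2 among them, so the list does not read out Trem2 activity. Of 20 genes, all measured, 18 lay above 0 in siTfe3/Tfeb cells (median 0.90, against -0.01 over all genes) and 18 in siGFP cells (median 0.85, against -0.02). At least 2-fold higher were 6 in siTfe3/Tfeb cells, where 1.62% of all genes were, and 4 in siGFP cells, where 1.4% were. The inhibitory receptor Lilrb4a stood at 1.52 in siTfe3/Tfeb cells and 1.38 in siGFP cells, the growth factor Csf1 at 1.32 and 1.72, and the integrin gene Itgax at 2.02 and 1.08. The lipase Lpl (1.20 and 0.65), the tetraspanin Cd9 (1.04 and 0.90) and the cystatin Cst7 (1.01 and 0.84) were 2-fold higher in siTfe3/Tfeb cells, and Gpnmb (0.97 and 1.42) in siGFP cells. Apoe, which encodes a lipoprotein that Trem2 binds, was at -0.38 and -0.48. With knockdown the medians were -0.13 with iron, or -0.03 with median centring, and -0.29 without, against -0.02 and -0.03 over all genes. At least 2-fold lower were 3 of 20 with iron and 2 of 20 without, where 1.33% and 1.83% of all genes were. These were Itgax (-3.51 and -4.45), the chemokine Ccl6 (-2.42 and -1.91) and, with iron, Csf1 (-1.26, against -0.86 without), while Trem2 stood at -0.14 and 0.12. Gpnmb in this list is also a known MiT/TFE target, and with knockdown it stood at -0.13 with iron and 0.32 without. The list was chosen with earlier results of these data known.

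Genes that Trem1 signalling amplifies, cytokines and the enzyme gene Ptgs2, were mostly lower with knockdown. Below 0 were 6 of 7 measured with iron and 7 of 7 without, of 11 in the list. The list medians were -0.85 with iron and -1.25 without, against -0.02 and -0.03 over all genes. With no filter on background the median without iron was -0.52. At least 2-fold lower were 3 of 7 with iron, where 1.33% of all genes were, and 5 of 7 without, where 1.83% were. The chemokine Ccl2 stood at -2.85 with iron and -2.84 without, Il1b at -1.97 and -2.22, and Tnf at -1.28 and -2.15. Ccl4 (-0.85 and -1.18) and Cxcl2 (-0.82 and -1.25) were 2-fold lower without iron, and Ccl3 (-0.47 and -0.51) and Ptgs2 (0.28 and -0.52) in neither state. For comparison Trem1 was at -0.17 and -0.17 by its brightest probe and at -1.31 and -1.96 by the other. With iron 6 of 7 were 2-fold higher in siTfe3/Tfeb cells (median 1.85) and 4 of 7 in siGFP cells (median 1.05), where 1.62% and 1.4% of all genes were and the medians over all genes were -0.01 and -0.02. Ccl4 (2.44 and 2.10), Ccl2 (2.12 and 2.13), Ccl3 (2.03 and 1.99) and Ptgs2 (1.85 and 1.05) were the 4 in both siRNA groups. Tnf (1.29 and 0.42) and Cxcl2 (1.0002 and 0.57) were 2-fold higher in siTfe3/Tfeb cells alone, and Il1b was lower in both (-0.18 and -0.43). The Cxcl2 value lay at the 2-fold line with a spot SD of 0.31, from dim levels of 0.192 with iron and 0.0961 without.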

How the data were processed

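Total RNA of 4 cultures, 1 in each group, was labelled with Cy3 per the labels and quantified with version 12.0.3.1 of Agilent Feature Extraction (submitters' processing notes). Per spot, the deposited scanner files hold a processed intensity, background-subtracted and detrended within the array per the file headers and not scaled between arrays. The deposited series matrix holds log2 values, and set against the scanner values its differences had a slope of 1 and r of 1 in each comparison, and each probe had a median of 0 across the arrays. Its column medians were 0.0013 (siTfe3/Tfeb with iron), -0.087 (siTfe3/Tfeb), 0.022 (siGFP with iron) and -0.0042 (siGFP). It was an alternative here.

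Values were log2 processed signal minus the array's 75th percentile over 59305 non-control spots. Outlier spots were left out (3 probes lost) and spots of 1 probe averaged. Probes were named through RefSeq (GRCm38.p6, names only), 33764 by accession and 9866 by symbol, with 12972 unnamed. Differences were taken where both arrays were well above background. Where 1 array was not, a bound was taken against the lowest signal well above background there, or the probe's own if higher. The spot SD came from 310 probes spotted repeatedly. Python 3.11.15 and limma 3.58.1 (normexp, offset 50) were used.

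Members, 10 gene lists and tests were chosen with earlier results of these data known. Named were the members, the 3 genes most like each member that ranged 2-fold, and of each list the genes 2-fold different in any comparison or else its 2 largest, with Tfe3 and Tfeb as a check of the labels. Apoe, named as a ligand, and Cd200r3, Sema6d and Calcr, below background on some array, were chosen after their values were seen. Mitf stood in siTfe3/Tfeb cells at 96.6% of siGFP with iron and 93.7% without.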

Additional observations from a re-analysis of the deposited data

Results flagged for a closer look

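With 1 array per group, a difference in sign between the siRNA groups or between the iron states is the difference of single values, and none was tested. Treml4 had opposite signs with knockdown, 0.37 with iron and -0.77 without, each beyond its spot SD (0.084 and 0.24). Trem2 did too, at -0.14 with iron and 0.12 without, with a spot SD of 0.064 each. With median centring its value with iron was -0.04, within that spot SD. Syk had opposite signs both ways: -0.14 with knockdown in the presence of iron and 0.01 without, and -0.09 with iron in siTfe3/Tfeb cells and 0.06 in siGFP cells. Of these Syk values all but the -0.14 and the -0.09 lay within the spot SD of 0.084.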

How the results depend on the processing

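Counts of members with a 2-fold difference changed little over the 7 alternatives listed in advance of the recalculation and 1 chosen after seeing the data, the Trem1 probe without the GTT run. They stayed at 1 for iron in siTfe3/Tfeb cells and in siGFP cells under each. For the difference of iron responses the count was 0 with normexp background correction and 0 with quantile normalization added, where Treml4 fell to 0.92 and 0.91. Averaging over all probes gave 0 for knockdown with iron (Treml2 at -0.99) and 2 for knockdown without iron, where Trem1 (-1.07) joined Treml2. The other Trem1 probe gave 2 with iron and 2 without. Of the single member differences recalculated, 272 moved by less than their spot SD and 48 by more. Of the list medians 225 moved by less and 55 by more than 0.064, the spot SD of a single difference at the highest levels. No member with a 2-fold difference changed sign under any of the 8. Over all genes, normexp background correction called fewer: 1.15% with iron in siTfe3/Tfeb cells, 0.962% in siGFP cells, 0.941% with knockdown in the presence of iron, 1.58% without iron and 0.137% for the difference of responses. With no filter on background between 6.33% and 10.2% were called. The causes were not tested. Signal over background limits the dimmer Trem1, Treml2 and Treml4 probes, whose spot SDs rest on 50 combinations of probe and array at the lowest levels and on 10 just above. It also limits dim genes of the lists, among them Cxcl2, Src, Pilrb2 and Sirpb1b. No paired analysis was possible because each group held 1 array.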

Other observations

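With iron in siGFP cells 1.4% of all genes were at least 2-fold higher. Of the signalling genes around Syk, 1 of 28 downstream genes, 1 of 6 Src family kinases and 1 of 16 inhibitory receptors and phosphatases were. In siTfe3/Tfeb cells 0 of 28, 0 of 5 and 1 of 16 were, against 1.62% of all genes. Of 28 genes downstream of Syk, all measured, 16 lay above 0 with iron in siTfe3/Tfeb cells (median 0.05) and 18 in siGFP cells (median 0.05). With knockdown 12 and 11 did (medians -0.04 with iron, or 0.05 with median centring, and -0.04 without). Over all genes 6907 of 14084 and 6554 of 14239 lay above 0 with iron, and 6617 of 14027 and 6648 of 14276 with knockdown. The adaptor Lat was 2-fold higher with iron in siGFP cells (1.54) and stood at 0.65 in siTfe3/Tfeb cells, and Malt1 stood at 0.83 and 0.53 in the same order. The Src family kinases, which phosphorylate ITAMs, had medians of -0.10 and -0.03 with iron, with 5 and 6 of 8 measured, and of -0.06 and -0.33 with knockdown. Src itself was 2-fold higher with iron in siGFP cells (1.04, spot SD 0.31). It was not well above background in siTfe3/Tfeb cells, so that it lay there at least 3.45-fold below siGFP cells with iron and at least 1.87-fold without. In siTfe3/Tfeb cells Fgr stood at -0.18 with iron, against -0.79 in siGFP cells. Inhibitory receptors and phosphatases, 16 of 18 measured, had medians of 0.07 and 0.02 with iron and -0.11 and -0.07 with knockdown. Lilrb4a was the gene 2-fold higher with iron, at 1.52 in siTfe3/Tfeb cells and 1.38 in siGFP cells. The adaptor Dok2 was at -0.78 with knockdown in the presence of iron and -1.31 without. It was the 1 of 16 at least 2-fold lower without iron, where 1.83% of all genes were.

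Other ITAM adaptors and Fc receptors, 6 of 6 measured, had medians of 0.29 and 0.24 with iron. Fcgr3 stood at 0.57 in siTfe3/Tfeb cells and 0.77 in siGFP cells, and Fcgr1 at -0.51 and -0.41. With knockdown the medians were -0.11 with iron and 0.07 without, and this last turned to -0.08 when all probes were averaged. The proteases that shed Trem2 and the subunits of gamma-secretase, 9 of 9 measured, had medians between -0.19 and 0.02 in the 4 comparisons, and with knockdown Aph1b stood at 0.93 with iron and 0.95 without, and Aph1c at 0.20 and 0.89. Ligands and co-receptors, of which 5 of 7 were measured with iron in both siRNA groups, had medians of 0.28 and -0.04. Clu was 0.88 higher with knockdown in the presence of iron and 0.58 without, Plxna1 stood at 0.89 and 0.60 with iron, and for Sema6d the iron arrays lay at least 2.77-fold below in siTfe3/Tfeb cells and 2.29-fold in siGFP cells. Treml1 was 2.14-fold higher with knockdown without iron (1.10) and 1.79-fold with iron (0.84), which were 0.77 and 0.66 with normexp background correction and 0.78 and 0.65 with quantile normalization added, both short of 2-fold.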
